A study of Mus musculus with 5 samples.

Results

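Genes for 9 transporters of amino acids and small peptides are described here in the ileal epithelium of mice after small bowel resection or sham surgery. The genes Slc15a1, Slc6a19, Slc7a9, Slc3a1, Slc7a7, Slc7a8, Slc1a1, Slc36a1 and Slc7a15 were chosen by symbol, with earlier results of these data known. All 9 were present among the 27998 genes of the deposited table. Each library held cells from the ileum, the distal part of the small bowel, of C57BL/6 mice aged 8 to 12 weeks, and the groups differ by surgery alone as far as the labels state. The sham group had 3 libraries (sham 1 to sham 3) and the resection group, in which a length of small intestine was removed, had 2 (resection 1 and resection 2). The labels do not say how long after surgery the tissue was taken, how many mice went into a library or how the replicates relate. The p-values for surgery therefore measure the spread between these 5 libraries, which may be technical in part. Those for the villus position score described further on come from fits with library as a block. They measure how far the differences between tiers vary among the 5 libraries, once the level of each library as a whole is taken out.

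Dietary protein reaches the enterocyte as free amino acids and short peptides. Apical carriers in the brush border take these up, each with its own class of substrate and its own driving ion, and basolateral carriers pass amino acids on towards the blood. Several are heteromers, in which a light chain of the SLC7 family carries the substrate and a heavy chain of the SLC3 family brings it to the membrane. Enterocytes mature as they move from the crypt to the villus tip, where they are shed.

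At the apical membrane, Slc15a1 (PEPT1) carries dipeptides and tripeptides with protons, and Slc6a19 (B0AT1) carries neutral amino acids with sodium. Slc7a9 and Slc3a1 are the light and heavy chain of the exchanger for cystine and cationic amino acids, Slc1a1 (EAAT3) carries glutamate and aspartate, and Slc36a1 (PAT1) carries small neutral amino acids with protons. Slc7a7 and Slc7a8 are basolateral light chains, for exchange of cationic against neutral amino acids and for neutral amino acids, and both pair with the heavy chain Slc3a2. Slc7a15 belongs to the same light chain family. In GRCm38, Slc15a1 lies on chromosome 14 from 121459621 to 121505252, Slc7a7 from 54369442 to 54417780 and Slc7a8 from 54722209 to 54781946 on the same chromosome, all on the minus strand. Slc6a19 spans 73679745 to 73704865 on chromosome 13 and Slc7a15 spans 8528483 to 8599066 on chromosome 12, both on the minus strand. The other 4 genes are on the plus strand, Slc7a9 on chromosome 7 from 35448796 to 35466036, Slc3a1 on chromosome 17 from 85028376 to 85064236, Slc1a1 on chromosome 19 from 28835049 to 28913960 and Slc36a1 on chromosome 11 from 55204350 to 55236330. Counts are per gene, so exons cannot be told apart. Only Slc6a19 among them overlaps an antisense gene by name, Slc6a19os (chromosome 13, 73699826 to 73709853, plus strand), which had at most 4 UMIs in any library's enterocyte-like cells against at least 1852 for Slc6a19, and whether strand was used in counting is not given in the sources used here.

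Upstream sequence is shown for 4 of the genes. Of these, Slc15a1, Slc3a1 and Slc7a15 rose from the bottom to the top of the villus position score described further on, and Slc1a1 fell. Slc6a19, Slc7a9, Slc7a7 and Slc36a1, which also rose, and Slc7a8, which fell, are not shown. The window listed for Slc6a19 lies at a start inside the gene. The sequences are from RefSeq (GRCm38.p6), read 5′ to 3′ on the strand of the gene and ending just before the annotated start site, or for Slc1a1 before the gene's start in the annotation. Capitals mark matches on either strand to 6 short motifs.
Slc15a1, chr14:121505255-121505504, minus strand: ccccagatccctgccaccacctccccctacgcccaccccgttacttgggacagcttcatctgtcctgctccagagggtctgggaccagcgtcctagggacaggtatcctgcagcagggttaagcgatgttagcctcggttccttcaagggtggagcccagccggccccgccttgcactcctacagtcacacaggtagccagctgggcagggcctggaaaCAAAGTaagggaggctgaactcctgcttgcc
Slc3a1, chr17:85028097-85028346, plus strand: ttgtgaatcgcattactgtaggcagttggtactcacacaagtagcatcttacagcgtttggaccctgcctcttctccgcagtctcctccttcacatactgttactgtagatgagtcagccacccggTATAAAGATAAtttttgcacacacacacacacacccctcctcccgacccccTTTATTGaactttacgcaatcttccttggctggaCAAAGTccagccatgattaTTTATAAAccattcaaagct
Slc7a15, chr12:8599067-8599316, minus strand: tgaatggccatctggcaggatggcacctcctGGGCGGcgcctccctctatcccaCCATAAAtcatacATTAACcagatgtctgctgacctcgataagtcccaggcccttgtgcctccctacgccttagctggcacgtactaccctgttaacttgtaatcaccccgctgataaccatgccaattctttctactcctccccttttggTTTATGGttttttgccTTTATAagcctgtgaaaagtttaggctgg
Slc1a1, chr19:28834885-28835048, plus strand: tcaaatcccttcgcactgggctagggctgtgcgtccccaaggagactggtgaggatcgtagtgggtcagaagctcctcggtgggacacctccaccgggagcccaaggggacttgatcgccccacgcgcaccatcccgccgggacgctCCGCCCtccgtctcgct
The motifs were searched on both strands, with all letters required, and their share is given over 32841 windows of 250 bases before annotated starts. The HNF4-type letters CAAAGT were in 12.6% of those windows. The HNF1-type letters GTTAAT were in 6.43% of the windows and the SP/KLF-type letters GGGCGG were in 32.7%. The CDX-type letters, TTTATNG, were in 9.81% of the windows. The letters of the type bound by GATA factors, AGATAA, were in 9.99% of the windows. The TATA box, searched as TATAAA, was in 12.4% of the windows. The Slc15a1 and Slc3a1 windows both held CAAAGT, 31 and 39 bases before the start. Slc3a1 also held the CDX-type letters, a match for GATA factors and TATA boxes, and the last 2 overlap. Slc7a15 held HNF1-type letters 183 bases before the start, CDX-type letters at 196 and 45, SP/KLF-type letters at 219 and a TATA box on the opposite strand at 29. The Slc1a1 stretch, shorter at 164 bases, held only SP/KLF-type letters, 103 bases before the RefSeq start at 28835135, which lies inside the annotated gene. The window before another annotated start of Slc7a15 (chr12:8539567-8539816) held none of the motifs, and neither did the window listed for Slc6a19. A match is a description of the letters and not a binding site.

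After filtering, 18235 of 19404 cells were kept, and clusters were named from marker genes, none of them 1 of the 9 transporters. Each library held 1402 to 7233 cells and 11749028 to 41281731 UMIs (unique molecule counts), with a median of 4541 to 6239.5 UMIs per cell. Any pair of libraries shared 6 to 47 cell barcodes, at most 1.5% of the smaller library. Epithelial genes Epcam (1473 to 1908 CPM, counts per 1000000 of the scaled total), Vil1 and Cdh1 were present in every library, and so were the ileal genes Fabp6, Slc10a2 and Fgf15. Fabp6, the ileal bile acid binding protein, read 17404, 20447 and 25929 CPM in the sham libraries and 3995 and 15614 in the resection libraries. Sham 1 and resection 1 stood apart from the other 3 libraries, with a median mitochondrial share of 13.7% and 11.7% against 7.24 to 9.19% and with the 2 highest minimum depths per cell. The labels name no batch. Values are therefore also given within each of these 2 sets, sham 1 with resection 1 and sham 2 and 3 with resection 2. The clusters of mature enterocyte-like cells were mostly from 1 library each, so they were pooled into 1 class per library, with 691, 2339 and 1584 cells in sham 1 to 3 and 2362 and 4445 in resection 1 and 2.

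Of the 9 transporters, 8 had their highest mean level in enterocyte-like cells, and Slc1a1 had its highest in immature enterocyte-like cells. Slc15a1 read 350, 296 and 126 CPM in enterocyte-like cells of sham 1 to 3 and 677 and 229 in resection 1 and 2, a mean of 335 ± 208 (SD, n = 5). The next classes in order were T cell-like (227 ± 107) and goblet-like cells (210 ± 105). The other 4 classes, from Paneth-like cells at the top to cycling-like cells at the bottom, lay between 43.9 and 29.6 CPM. Goblet-like and Paneth-like cells had ranges that did not overlap, and the neighbours among the lowest 4 classes overlapped.

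Slc6a19 followed the same order at the top, with 439 ± 175 CPM in enterocyte-like, 312 ± 84.3 in T cell-like and 309 ± 120 in goblet-like cells, then 56.7 ± 17.9 in Paneth-like cells and 41.1 to 51.0 in the other 3. T cell-like and goblet-like cells did not differ beyond their spread, with T cell-like cells higher in 2 of 5 libraries. Slc6a19 is known as a carrier of epithelial brush borders. The T cell-like and goblet-like levels lay above those of Paneth-like, stem-like, immature and cycling-like cells of the same libraries. CPM was scaled separately within each class. The source of the transporter RNA in T cell-like cells was not tested.

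Slc7a9 reached immature cells at a higher share of its mature level than its heavy chain did. The means were 315 ± 73.0 CPM in enterocyte-like, 205 ± 50.4 in T cell-like, 151 ± 38.0 in goblet-like and 137 ± 32.1 in immature enterocyte-like cells, then 46.8 or less in cycling-like, stem-like and Paneth-like cells. Immature and cycling-like ranges did not overlap. Slc3a1 read 178 ± 36.7 CPM in enterocyte-like cells, 115 ± 23.6 in T cell-like, 102 ± 38.8 in goblet-like and 45.1 ± 7.78 in immature enterocyte-like cells. The goblet-like and immature ranges of Slc3a1 did not overlap. In immature cells the mean was 0.434 of the enterocyte-like mean for Slc7a9 and 0.254 for Slc3a1.

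Of the basolateral light chains, Slc7a7 was the one gene whose enterocyte-like range lay apart from every other class, at 225 ± 25.9 CPM against 140 ± 14.2 in T cell-like, 137 ± 32.5 in goblet-like and 88.8 ± 10.2 in immature enterocyte-like cells. Slc7a8 was spread more evenly, with 62.4 ± 25.4 CPM in enterocyte-like, 54.1 ± 24.2 in T cell-like, 45.9 ± 15.1 in immature, 38.1 ± 12.6 in goblet-like, 31.5 ± 16.2 in cycling-like cells and 16.8 ± 13.5 in the stem-like class. Its neighbours in this order all overlapped. Paneth-like cells came last at 5.84 ± 3.0.

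Slc1a1 read 125, 107 and 93.7 CPM in the immature enterocyte-like cells of sham 1 to 3 and 82.7 and 75.5 in resection 1 and 2, and 90.5, 72.7, 95.7, 49.8 and 50.6 in the enterocyte-like cells of the same libraries. Immature cells were higher in 4 of 5 libraries, with means of 96.7 ± 19.6 and 71.9 ± 21.5 whose ranges overlapped. Cycling-like cells (72.9 ± 16.4) lay between them, goblet-like (58.5), stem-like (56.7) and T cell-like cells (51.1) overlapped below, and Paneth-like cells stood apart at 8.17 ± 2.70. Slc36a1 and Slc7a15 were low outside enterocyte-like, goblet-like and T cell-like cells. Slc36a1 averaged 43.9 ± 35.1 CPM in enterocyte-like cells, 29.9 and 29.8 in T cell-like and goblet-like cells and at most 9.83 in the other 4 classes. Slc7a15 averaged 73.2 ± 39.2 in enterocyte-like cells, 56.0 and 53.7 in goblet-like and T cell-like cells and at most 12.8 in the other 4.

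**Figure D1:**
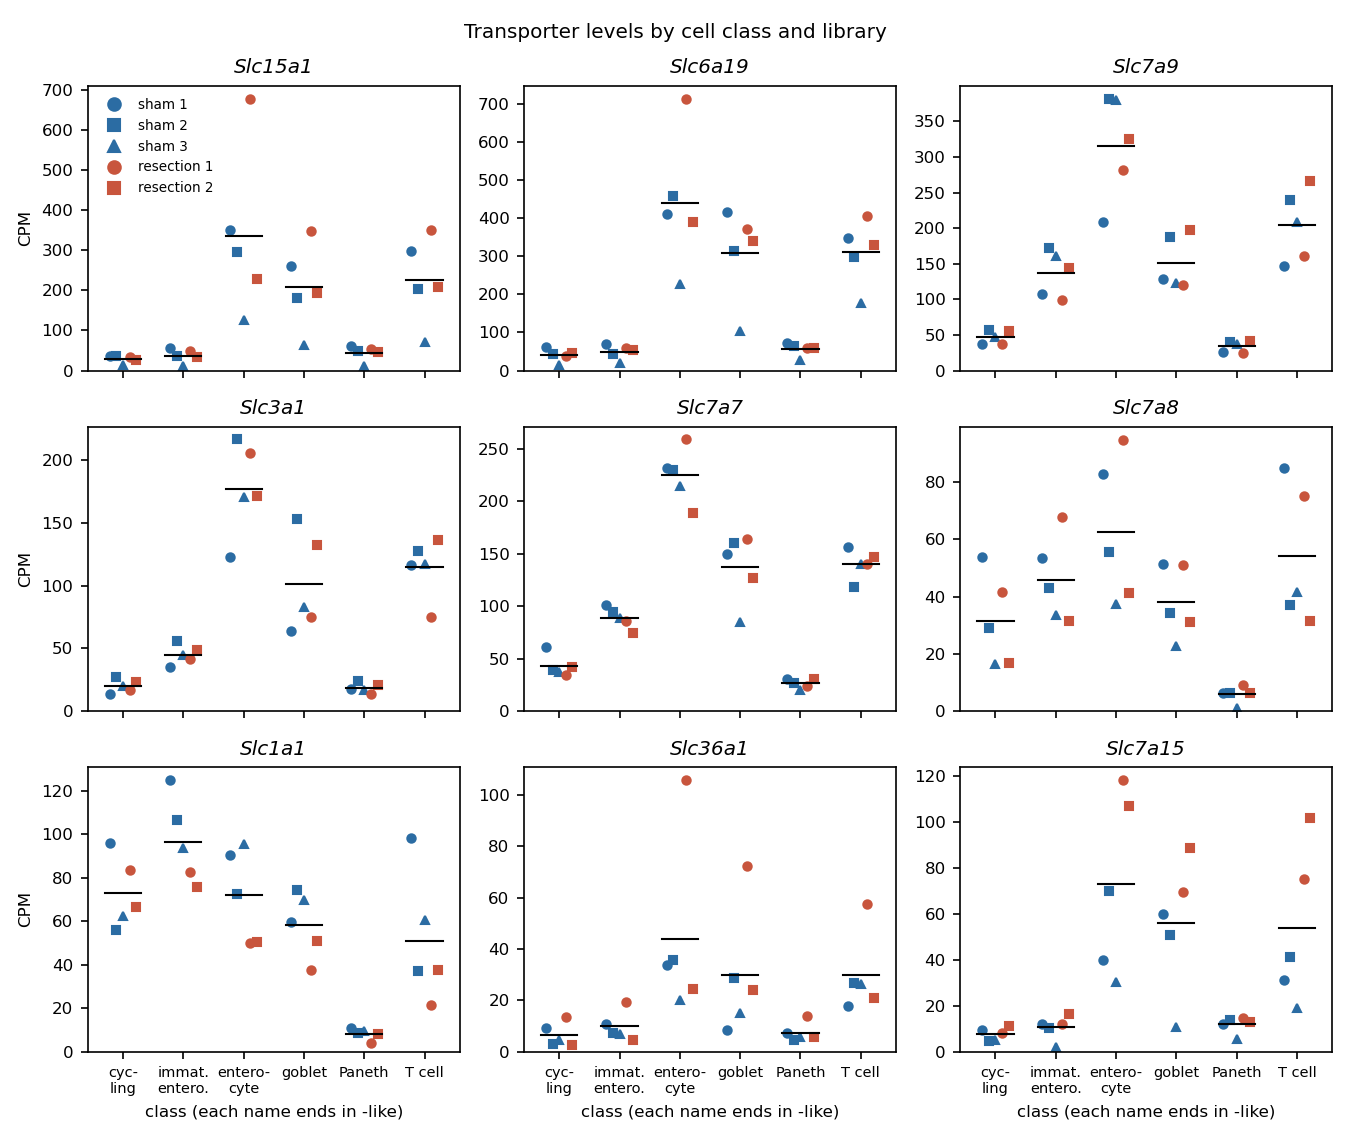
Level of each transporter (y axis, CPM, linear from 0) in 6 cell classes (x axis), with 1 point per library (sham blue, resection red, shapes for the library) and a bar at the mean of 5. The enterocyte-like column is the highest for 8 genes and the immature column is the highest for Slc1a1.

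The share of cells with a UMI was compared at 2000 UMIs per cell, since free RNA can give UMIs in cells that do not express a gene. No cell was too shallow for this. Median depths before thinning were 4100 to 5853.5 UMIs in enterocyte-like cells and 4001.5 to 6810 in T cell-like cells. Slc15a1 was detected in 43.1% ± 18.1 (SD, n = 5) of enterocyte-like cells and 29.8% ± 12.9 of T cell-like cells, and Slc6a19 in 52.1% ± 13.3 and 37.1% ± 12.6. Slc7a9 was detected in 45.6% ± 4.51 and 32.2% ± 5.09 of these cells. The share in enterocyte-like cells was above that in T cell-like cells in 5 of 5 libraries for Slc15a1, Slc3a1, Slc7a7 and Slc7a8 and in 4 of 5 for the other 5 genes. In immature enterocyte-like cells only Slc1a1 was above the T cell-like share in 5 of 5 libraries, at 17.5% ± 6.07 against 9.71% ± 8.09. The other 8 genes were above it in 1 library at most. T cell-like cells are not the lowest class, however, and Slc7a9 was detected in 22.1% ± 2.59 of immature cells, with a range of 19.1 to 25.6%, against 7.22 to 14.5% in cycling-like and 4.05 to 12.2% in Paneth-like cells.

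Within enterocyte-like cells the transporters differed along a villus position score, and all 9 were called in the comparison of its top with its bottom tier. The score is the mean of 7 genes known from the villus tip (Ada, Nt5e, Slc28a2, Enpp3, Pkib, Egfr and Klf4) minus the mean of 7 from its bottom (Reg3b, Reg3g, Reg1, Nlrp6, Il18, Lypd8 and Gsdmc4). It ranks the cells within each library into 3 tiers of equal size. It is a range of expression and not a measured location, and none of the 9 transporters is part of it. Of 9050 genes tested with edgeR (library as a block), 45.3% were called in either direction, 22.5% higher and 22.8% lower at the top, so a call by itself does not set a gene apart. Of the 9, 7 rose towards the top (Slc15a1, Slc6a19, Slc7a9, Slc3a1, Slc7a7, Slc36a1 and Slc7a15) and 2 fell (Slc7a8 and Slc1a1). Their median log2 difference was 0.50, against 0.00 over all genes tested.

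Slc7a15 had the steepest rise of the 9. Its bottom, middle and top tiers read 19.1, 29.99 and 73.8 CPM in sham 1, 29.9, 65.7 and 132 in sham 2 and 9.60, 26.2 and 64.8 in sham 3. The resection libraries read 57.7, 124 and 190 in resection 1 and 34.8, 122 and 202 in resection 2. The level rose at each step in every library, with a log2 difference of 2.21 ± 0.13 (SE) between top and bottom and an edgeR adjusted p of 7.79e-11. Of the 9050 genes tested, it ranked 33 by the size of its rise.

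The apical carriers for peptides and neutral amino acids rose by nearly the same amount. Slc15a1 averaged 184 ± 131, 338 ± 224 and 535 ± 290 CPM from bottom to top (SD, n = 5), a log2 difference of 1.68 ± 0.11 (adjusted p = 2.42e-10, edgeR). Slc6a19 averaged 231 ± 115, 454 ± 204 and 704 ± 228 CPM, a log2 difference of 1.69 ± 0.10 (adjusted p = 1.91e-10, edgeR). Both rose at each step in 5 of 5 libraries, and their ranks were 94 and 93. Within single libraries Slc15a1 ran from 51.2 to 237 CPM in sham 3, which had the lowest levels, and from 389 to 1009 in resection 1, which had the highest.

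The 2 chains of the cystine exchanger did not rise equally. Slc3a1, the heavy chain, averaged 134, 175 and 242 CPM from bottom to top and rose at each step in 5 of 5 libraries, by 0.86 ± 0.07 on the log2 scale (adjusted p = 8.63e-09, edgeR). Slc7a9, the light chain, averaged 295, 313 and 347 CPM, with the top above the bottom in 4 of 5 libraries and a log2 difference of 0.24 ± 0.07 (adjusted p = 0.0117, edgeR). That call was lost without resection 2 (adjusted p = 0.141) and without sham 3 (adjusted p = 0.0899). The ratio of Slc3a1 to Slc7a9 UMIs rose from bottom to middle to top in every library, from 0.485 to 0.579 to 0.699 in sham 1, 0.401 to 0.570 to 0.812 in sham 2 and 0.378 to 0.431 to 0.550 in sham 3. It went from 0.632 to 0.695 to 0.865 in resection 1 and from 0.434 to 0.543 to 0.617 in resection 2. Immature enterocyte-like cells had ratios of 0.277 to 0.422, each below the bottom tier of its own library. Cycling-like cells had ratios of 0.375, 0.475 and 0.414 in sham 1 to 3 and 0.452 and 0.427 in resection 1 and 2. These were above the immature ratio in every library, and above the bottom tier in sham 2 and sham 3. The cycling-like ratio of sham 1 rests on 6 Slc3a1 UMIs.

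Slc36a1 rose by 0.50 ± 0.13 on the log2 scale (adjusted p = 0.00322, edgeR), with the top above the bottom in 5 of 5 libraries. In resection 1 the step was from 101 to 105 CPM, and in resection 2 from 15.3 to 36.7. Without resection 2 the adjusted p was 0.0667. The basolateral chain Slc7a7 rose by 0.33 ± 0.07 (adjusted p = 0.000324, edgeR), from 196 to 246 CPM, with the middle tier above the top in both resection libraries. Slc7a8, the other basolateral chain, fell by 0.24 ± 0.08 on the log2 scale (adjusted p = 0.0185, edgeR), from 66.3 to 56.3 CPM. It was lower at the top in 5 of 5 libraries, but the call was lost without resection 1 (adjusted p = 0.175), without sham 2 (adjusted p = 0.0589) and with a score of the tip genes alone (adjusted p = 0.175).

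Slc1a1 went the other way from the remaining apical carriers. Its bottom, middle and top tiers read 93.5, 106 and 74.5 CPM in sham 1, 81.5, 75.9 and 54.6 in sham 2 and 91.1, 102 and 91.4 in sham 3. The resection libraries read 62.7, 45.7 and 38.6 in resection 1 and 63.7, 51.0 and 29.2 in resection 2. The top was below the bottom in 4 of 5 libraries and level in sham 3, and the log2 difference was −0.55 ± 0.12 (adjusted p = 0.000530, edgeR).

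**Figure D2:**
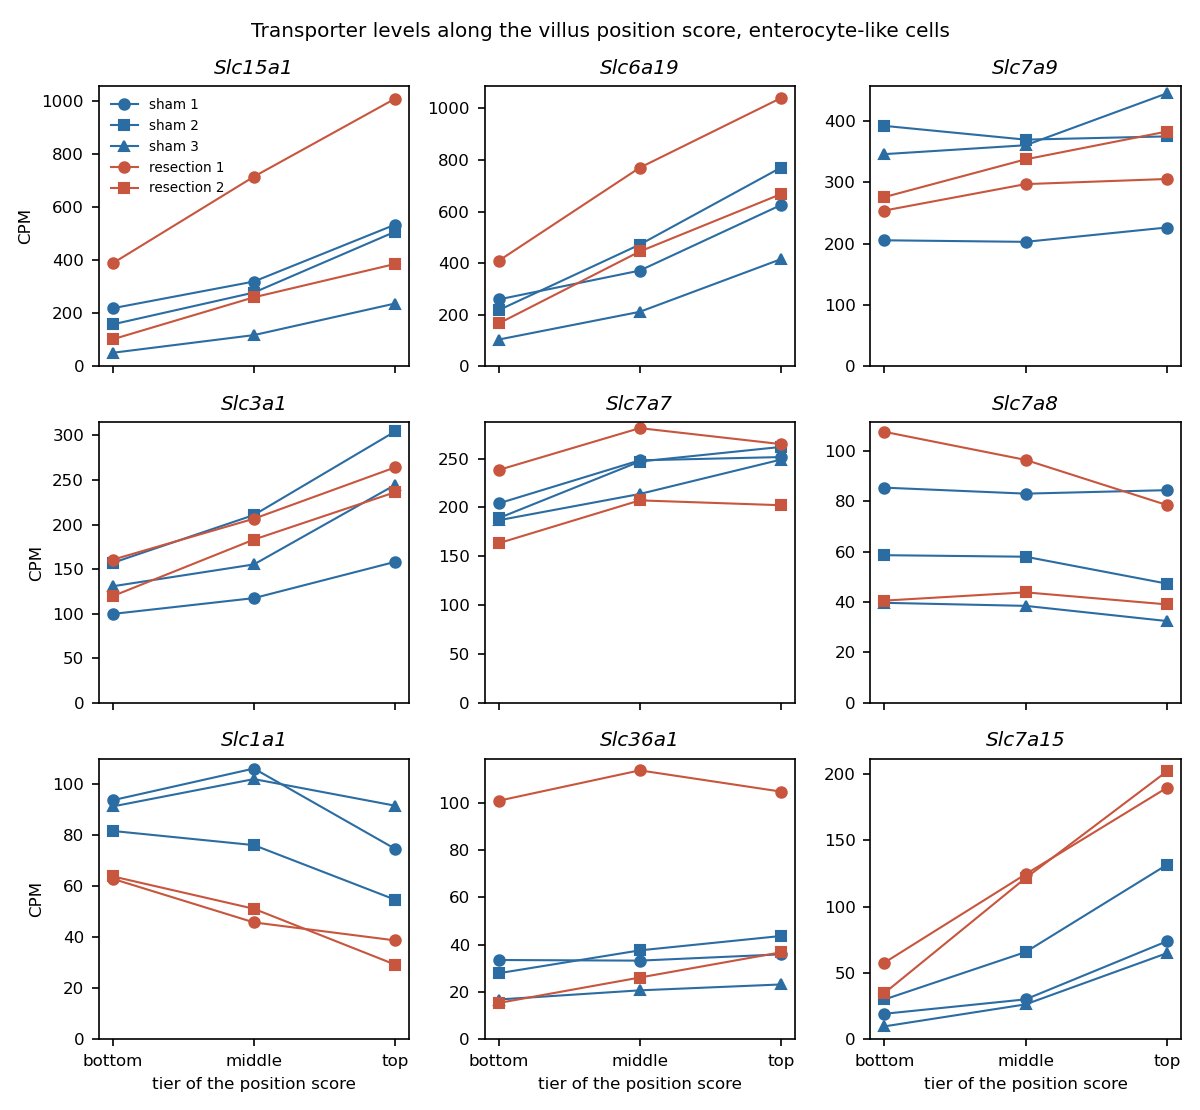
Level of each transporter (y axis, CPM) in the bottom, middle and top tier of the villus position score (x axis), with 1 line per library. Slc7a15, Slc6a19, Slc15a1 and Slc3a1 climb at each step in all 5 libraries. In proportion to its bottom tier, though not in CPM, Slc1a1 declines most in the 2 resection libraries.

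The tiers also differed in other measures. The top tier was shallower, with median UMIs per cell of 3355 to 4929 against 4877 to 6582 at the bottom. Summed enterocyte markers were higher at the top than at the bottom in every library, from 18670 to 36315 CPM in sham 1, 31468 to 77748 in sham 2, 21692 to 64474 in sham 3, 45252 to 84655 in resection 1 and 40922 to 146011 in resection 2. Summed goblet markers ran from 546 to 1028 CPM at the bottom and 618 to 1608 at the top, Paneth markers from 1470 to 6003 and 1786 to 9548, and T cell markers from 28.7 to 114 and 34.8 to 135. Immature enterocyte markers, 1 of which (Gsdmc4) is also in the score, ran from 426 to 810 at the bottom and 155 to 590 at the top. Their part in the transporter differences was not tested. The marker sums by tier were not TMM-scaled, so they are not on the same scale as the marker sums of whole classes given further on.

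Of the other amino acid and peptide transporters and their partners (a list of 48), 21 were expressed enough for the position test. Among these 21, 8 rose towards the top, 3 fell and 10 were not called, with a median log2 difference of 0.39. Over all 9050 genes tested, 22.5% were called higher and 22.8% lower, 45.3% in either direction. Pdzk1, a scaffold that binds brush border transporters, rose by 1.47 ± 0.14. Slc16a10, a carrier of aromatic amino acids, rose by 0.89, Slc43a2, a basolateral uniporter of neutral amino acids, by 0.67 and Slc6a20a, which carries proline, by 0.39. Slc3a2, the heavy chain of Slc7a7 and Slc7a8, rose by 0.22, a call that was lost without sham 2 (adjusted p = 0.0564), without sham 3 (adjusted p = 0.114) and with the tip genes alone (adjusted p = 0.0666). Slc38a9 (0.52) and Slc38a10 (0.45) rose as well. The Slc38a9 call (adjusted p = 0.0471, edgeR) was lost by DESeq2 (adjusted p = 0.170) and when any 1 library other than sham 3 was left out (adjusted p from 0.0531 to 0.173), and that of Slc38a10 with the tip genes alone (adjusted p = 0.122). Slc7a1, a carrier of cationic amino acids, fell by 0.94 on the log2 scale (−0.070 and not called with the tip genes alone). Slc38a2, a sodium-driven carrier of small neutral amino acids, fell by 0.75 and Slc6a9, a glycine carrier, by 1.12. Levels were low for Slc6a9 (mean 5.60 CPM at the bottom and 3.17 at the top), Slc7a1 (9.92 and 5.27) and Slc38a9 (3.55 and 5.07).

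Surgery was compared in the enterocyte-like cells of the 5 libraries, and no transporter passed the adjusted threshold of 0.05. The background was 0 of 10349 genes called (0%) by edgeR, with 538 genes (5.20%) at an unadjusted p below 0.05. DESeq2 called 71 genes (0.686%), none of them 1 of the 9 transporters. The median log2 difference, resection minus sham, was 0.22 over the 9 genes, 0.26 over the 25 tested genes of the wider list and −0.02 over all genes. Of the 9, 2 had both resection libraries outside the sham range, Slc7a15 above it and Slc1a1 below it, where 19.0% of all genes tested did (10.7% above, 8.36% below). The share among the 9 is near that background. In bulk sums of this kind, a change in the makeup of the class and a change per cell cannot be told apart.

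Slc7a15 read 39.8, 70.2 and 30.5 CPM in sham 1 to 3 and 118 and 107 in resection 1 and 2. Both resection values lay above all 3 sham values, with means of 113 ± 7.76 (SD, n = 2) and 46.9 ± 20.8 (SD, n = 3). The log2 difference was 1.26 ± 0.37 (SE), with an unadjusted p of 0.00985 and an adjusted p of 0.680 by edgeR. It was 1.57 within sham 1 and resection 1 and 1.09 within the other 3 libraries, and it ran from 1.03 to 1.68 with each library left out. The gene passed the threshold when genes with low counts were kept in the fit (adjusted p = 0.0147, with 1.40% of all genes called) and when replicate number was a block (adjusted p = 0.0313, with 1.70% called), and not by DESeq2 (adjusted p = 0.155). Summed enterocyte markers were likewise higher in both resection libraries, at 59639 and 92524 CPM against 22133, 55380 and 40708 in sham 1 to 3, and their part in the difference was not tested.

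The difference was present in each tier of the position score, where Slc7a15 in both resection libraries lay above the sham range at the bottom, in the middle and at the top, as did 8.40%, 11.8% and 12.3% of all genes. Over all epithelial cells the values were 29.6, 43.6 and 15.9 CPM in sham and 64.4 and 69.4 in resection, a log2 difference of 1.17 ± 0.40 (unadjusted p = 0.0218). In goblet-like cells it read 59.9, 51.0 and 10.6 in sham and 69.8 and 88.8 in resection. T cell-like cells showed the same order, with 31.3, 41.3 and 19.0 in sham and 75.3 and 102 in resection, so in these cells, which are not enterocyte-like, both resection libraries were above the sham range too. The T cell-like values rest on 7, 20 and 5 UMIs in sham and 21 and 132 in resection. No share over all genes is given for goblet-like or T cell-like cells.

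Slc1a1, the glutamate carrier, read 90.5, 72.7 and 95.7 CPM in the enterocyte-like cells of sham 1 to 3 and 49.8 and 50.6 in resection. Both resection values were below all sham values, with means of 50.2 ± 0.594 (SD, n = 2) and 86.3 ± 12.1 (SD, n = 3). The log2 difference was −0.78 ± 0.25, with an unadjusted p of 0.0159 and an adjusted p of 0.80 by edgeR. It was −0.86 within sham 1 and resection 1, −0.73 within the other 3 libraries and between −0.90 and −0.70 with each library left out. The resection libraries were below the sham range in all 3 tiers, as were 5.68%, 10.3% and 11.8% of all genes at the bottom, in the middle and at the top. They were also below it in immature enterocyte-like cells (log2 difference −0.45 ± 0.26, adjusted p = 0.9998 by edgeR), where 11.6% of genes lay outside it in either direction. The same held in the goblet-like, stem-like and Paneth-like classes, for which no share over all genes is given. The groups overlapped in cycling-like and T cell-like cells. Stem-like sham 1 had 8 cells. Paneth-like sums held 48, 25 and 10 Slc1a1 UMIs in sham and 12 and 22 in resection. Before TMM scaling (factor 1.42), Paneth-like resection 2 was not below the sham range. Summed immature enterocyte markers in the same enterocyte-like sums read 587, 518 and 499 CPM in sham and 281 and 316 in resection, and their part in the difference was not tested.

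The remaining 7 transporters overlapped between the groups. Slc15a1, at 350, 296 and 126 CPM in sham and 677 and 229 in resection, had a log2 difference of 0.82 ± 0.57 that rested on resection 1. Without that library it was −0.16, and within sham 2 and 3 with resection 2 it was 0.12. Resection 1 held a cluster of its own, 899 of 903 cells, in which Slc15a1 was among the leading genes at 1087 CPM. Slc6a19 read 410, 458 and 227 in sham and 712 and 390 in resection, a log2 difference of 0.59 ± 0.42 that was 0.10 without resection 1, 0.34 without sham 3 and 0.96 without resection 2. Slc36a1 read 33.6, 35.6 and 19.98 in sham and 106 and 24.5 in resection, so that resection 1 was high and resection 2 lay within the sham range. Its log2 difference of 1.13 ± 0.56 became −0.27 without resection 1, and it passed the threshold when genes with low counts were kept in the fit (adjusted p = 0.0470, edgeR).

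The cystine exchanger and the basolateral chains were near level. Slc7a9 read 208, 382 and 380 CPM in sham and 282 and 325 in resection (log2 difference −0.09 ± 0.35), and Slc3a1 read 123, 217 and 171 in sham and 206 and 171 in resection (0.15 ± 0.32). Slc7a7 read 232, 230 and 215 in sham and 259 and 188 in resection (−0.01 ± 0.28). Slc7a8 read 83.0, 55.6 and 37.6 in sham and 94.8 and 41.3 in resection (0.22 ± 0.45). With standard errors of this size, differences of this order were not detectable with 3 and 2 libraries.

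Of the partners, Slc3a2 read 165, 225 and 250 CPM in sham and 224 and 204 in resection, with no difference beyond the spread (0.00 ± 0.29). Pdzk1 read 213, 316 and 199 in sham and 510 and 450 in resection, a log2 difference of 0.99 ± 0.32 (adjusted p = 0.799, edgeR). Both resection libraries lay above the sham range for Pdzk1.

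**Figure D3:**
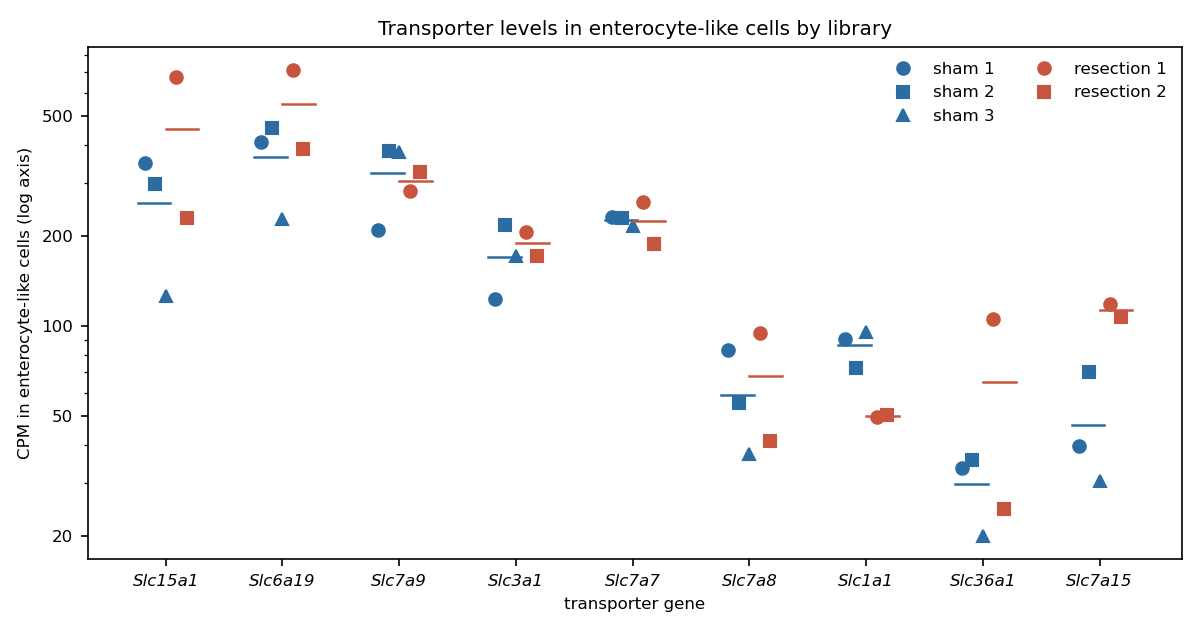
Level of each transporter in enterocyte-like cells (CPM), 1 point per library by surgery group. The sham and resection points separate for Slc7a15 (30.5 to 70.2 against 107 and 118) and Slc1a1 (72.7 to 95.7 against 49.8 and 50.6) and overlap for the other 7 genes.

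In immature enterocyte-like cells 3 transporters had both resection libraries outside the sham range (Slc7a15 above, Slc1a1 and Slc7a7 below), where 11.6% of 9742 genes did, and none of those genes was called by edgeR (0%). Slc7a7 read 101, 94.4 and 88.4 CPM in sham and 85.7 and 74.0 in resection, a log2 difference of −0.25 ± 0.24. Slc7a15 read 12.0, 10.3 and 2.10 in sham and 12.0 and 16.6 in resection (log2 difference 0.89 ± 0.56), which is 0.00 within sham 1 and resection 1. None of the 9 transporters was called over all epithelial cells or in any of the 3 other classes tested. The background there was 0% of genes over all epithelial cells and among the cycling-like, 0.0317% for goblet-like and 0.0314% for Paneth-like cells.

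Whether the position difference itself depended on surgery was tested as an interaction in the 15 sums of library and tier. Of 9739 genes, 319 (3.28%) were called, and of the 9 transporters Slc1a1 was the one called. Its fall from bottom to top was −0.27 ± 0.12 in the sham libraries (adjusted p = 0.0853, edgeR) and −0.91 ± 0.14 in the resection libraries (adjusted p = 5.5e-06, edgeR). The difference between the groups was −0.64 ± 0.18 (adjusted p = 0.0485, edgeR). Tiers are ranks within a library, and the score cuts between them lay at −0.37 and 0.26 in resection 1 and −0.39 and 0.31 in resection 2. They were closer together in sham 1 (−0.30 and 0.13), sham 2 (−0.32 and 0.19) and sham 3 (−0.27 and 0.15). The part of this spacing in the difference was not tested. The call sits at the threshold. It was lost without resection 2 (−0.42, adjusted p = 0.423), without sham 1 (−0.65, adjusted p = 0.122) and without sham 3 (−0.43, adjusted p = 0.380), and by DESeq2 (−0.60, adjusted p = 0.107). For the other 8 genes the adjusted p was above the threshold. Of these, Slc36a1 passed it in the fit without resection 1 (0.80, adjusted p = 0.0421).

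**Figure D4:**
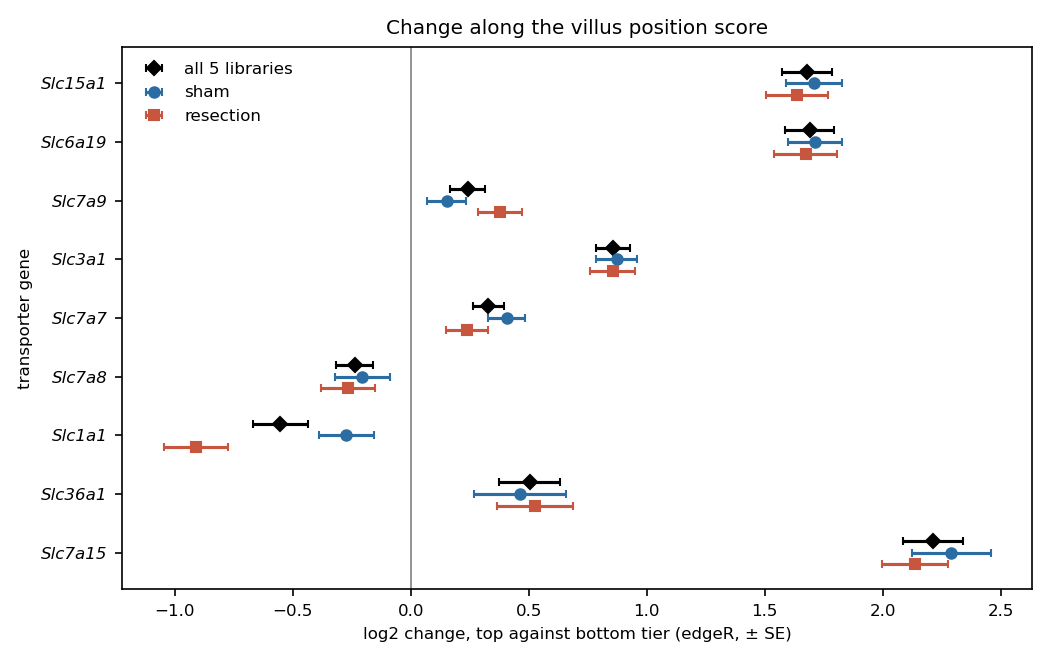
Log2 difference of each transporter between the top and bottom tier of the villus position score (x axis, edgeR estimate with SE bars), over all 5 libraries (black), the sham libraries (blue) and the resection libraries (red). Slc7a15, Slc6a19 and Slc15a1 lie furthest to the right in each fit, and the sham and resection estimates are furthest apart for Slc1a1 (−0.27 and −0.91).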

How the data were processed

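Single cells of 3 sham and 2 resection libraries were encapsulated on the 10x Chromium (3' chemistry, version 2) and processed with Cell Ranger, per the labels, which give its version with a question mark. The authors deposited whole-number UMI counts for each gene in each cell, not normalized. Builds mm10 and GRCm38 are named in the submitters' processing notes. The annotation and strand setting are not given in the sources used here. Gene coordinates are from the GRCm38 reference annotation.

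Cells needed 500 detected genes or more and a mitochondrial share of 20% or less, and 720 predicted doublets were removed. The 2000 variable genes left out the transporters described here, those of the wider list and mitochondrial genes. They were reduced to 30 components and clustered (leidenalg 0.10.2, resolution 1). Clusters were named from marker genes. Counts were summed per library and class, and per library, class and tier, and tested two-sided with edgeR 4.0.16 (quasi-likelihood, TMM scaling, filterByExpr, Benjamini-Hochberg adjustment over all genes, R 4.3.3). CPM is UMIs per 1000000 of the TMM-scaled total within a class. The marker sums by tier and the level in a single cluster are per 1000000 UMIs without TMM scaling. Standard errors in edgeR fits are the size of the log2 difference over the square root of its F statistic. DESeq2 1.42.0 was an alternative. Stem-like cells (8 in sham 1) and T cell-like cells were described and not tested. The shares of cells with a UMI are means with the SD over the 5 libraries and were not tested. Matches of sequence letters were found on both strands.

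All 9 transporters are named, with the partner Slc3a2. Of a list of 48 further transporters and partners, those called in any comparison by edgeR as described here are named (genes called under an alternative alone are not), and those with both resection libraries outside the sham range and at least 20 CPM. Of this list, 1 gene is counted and not reported here. The genes and lists were chosen with earlier results of these data known. On simulated counts the surgery test recovered 18% of genes changed by 1 and 86% of those changed by 2 on the log2 scale (100 genes each of 10366). The position test recovered 100% of both (8976 genes), and the test of its difference between groups 90% and 100% (9437 genes).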

Additional observations from a re-analysis of the deposited data

Results flagged for a closer look

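The steeper fall of Slc1a1 towards the top of the villus position score in the resection libraries was tested as a difference between the surgery groups and passed the threshold, at −0.64 ± 0.18 on the log2 scale (adjusted p = 0.0485, edgeR). The top tier was below the bottom in 2 of 2 resection libraries and in 2 of 3 sham libraries. Without sham 3 the difference was −0.43 (adjusted p = 0.380, edgeR). The score cuts between tiers lay further apart in both resection libraries than in the sham libraries, and the part of this in the difference was not tested.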

How the results depend on the processing

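Limits apply to every result: there are 5 libraries, cell names and position come from marker genes, and the CPM of a class does not separate makeup from level per cell. Counts of genes called by surgery moved with the fit. With DESeq2 they were 71 for enterocyte-like, 37 for all epithelial, 6 for Paneth-like, 2 for cycling-like, 5 for goblet-like and 5 for immature cells. With no filter on low counts they were 222, 18, 12, 3, 26 and 3 in the same order, and with the set of libraries as a term 27, 3, 12, 5, 1 and 7. The replicate numbers pair no samples by the labels. Deviations of same-numbered libraries correlated at 0.54 and 0.19, but sham 3 with resection 2 reached 0.49. With the replicate number as a block the counts were 176, 180, 47, 7, 5 and 116. Transporters called were 2 with no filter and 1 with the block in enterocyte-like cells, and 1 with the block over all epithelial cells. Leaving out each library gave 0 to 2 calls in enterocyte-like, 0 to 5 in Paneth-like, 0 to 14 in goblet-like and 0 to 4 in immature enterocyte-like cells, and 0 in cycling-like and all epithelial cells.

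The surgery difference of Slc7a9 turned to 0.10 with the replicate block and 0.059 with the set term, that of Slc7a8 to −0.12 and −0.016, and that of Slc7a7 to 0.010 with no filter. That of Slc3a2 turned to −0.0073 with DESeq2, −0.0068 with its size factors, −0.013 with genes scaled within libraries and −0.022 at the lower clustering resolution of 0.5. Leaving out each library gave ranges of −0.16 to 1.40 for Slc15a1, 0.10 to 0.96 for Slc6a19, −0.33 to 0.038 for Slc7a9, −0.039 to 0.35 for Slc3a1, −0.26 to 0.20 for Slc7a7, −0.50 to 0.70 for Slc7a8, −0.27 to 1.83 for Slc36a1 and −0.15 to 0.13 for Slc3a2. With tip genes alone in the score, 2392 genes were called by position and 56 in its difference between groups. Leaving out each library gave 3126 to 4055 and 156 to 405 calls, with 7 to 9 and 0 to 2 transporters among them. In that difference 0 transporters were called with DESeq2, its size factors, only the outer 20% of cells at each end or the tip genes alone, where Slc1a1 read −0.60, −0.62, −0.67 and −0.34. For Slc36a1 it turned to −0.15 with only the outer 20% of cells at each end, −0.045 with the tip genes alone and −0.20 without Klf4, Egfr, Reg3b and Reg3g, and ranged from −0.39 to 0.80 with a library left out. Thinned to 1000 UMIs, the shares of enterocyte-like cells fell to 33.9% for Slc6a19, 26.9% for Slc7a9, 16.5% for Slc3a1, 20.5% for Slc7a7, 5.95% for Slc7a8 and 6.81% for Slc1a1. These causes were not tested. Cycling-like cells gave no value at resolution 0.5, where they merged with stem-like cells in a cluster without a name.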

Other observations

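The genes most like each transporter were found by Pearson's r of log2(CPM + 10) over 25 sums (5 libraries in each of 5 classes), which share libraries and classes, so r is a description. Slc15a1 and Slc6a19 both had Ggt1, the brush border gamma-glutamyltransferase, as the most similar gene (0.98 and 0.99). Slc7a15 was most like Plb1 and Treh, a brush border phospholipase and the trehalase (0.97 each). Slc7a9 was most like Mogat2, an enzyme of fat resynthesis, and Erich4 (0.99 each), and Slc7a7 most like the peptidase Enpep and Ces2e (0.98 each). Slc3a1 went with Mpp1 and Prss30 (0.98 each), Slc7a8 with Slc25a37 (0.97) and Cmtm6 (0.96), and Slc36a1 with Cdr2 (0.93) and Mfsd7b (0.92). Slc1a1 was most like Gsr, glutathione reductase, and Mal2 (0.98 and 0.97). Among the transporters r was 0.98 for Slc15a1 with Slc6a19, 0.95 for Slc7a9 with Slc3a1 and 0.93 for Slc7a9 with Slc7a7, and Slc1a1 had 0.11 with Slc15a1, 0.06 with Slc7a15 and 0.78 with Slc7a8.

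Together the 9 transporters made up 1838, 1642 and 1201 UMIs per 1000000 in the enterocyte-like cells of sham 1 to 3 and 2720 and 1434 in resection 1 and 2, with resection 2 inside the sham range.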
